A study of Gallus gallus with 16 samples.

Results

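A group of 9 transcription factor genes that act in gonad formation and sex determination, SOX9, DMRT1, WT1, GATA4, GATA6, LHX9, EMX2, NR0B1 and TCF21, was followed by RNA-Seq in chicken granulosa cells with and without knockdown of FOXL2. The genes were taken by symbol, and each matched 1 of the 18151 gene rows of the deposited tables. Granulosa cells are the somatic cells that line the ovarian follicle. The primary cells came from White Leghorn hens of 25 to 30 weeks of age. The poGC were taken from pre-ovulatory follicles and the phGC from pre-hierarchical small yellow follicles. Both were cultured for 16 h in Medium 199 with 5% serum, transfected with FOXL2-siRNA (KD) or a nonsense siRNA (NC-siRNA, CT), and collected 48 h later. Each of the 4 combinations of cell type and siRNA, written poGC-CT, poGC-KD and so on, held 4 libraries. All libraries came from transfected cells, so that untransfected cells were not measured. The methods state that 4 hens were used, but not which hen gave which library, so the p-values measure the spread between these libraries only.

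The gonad of a vertebrate embryo starts as a ridge of coelomic epithelium and mesenchyme that can become a testis or an ovary. WT1, GATA4, LHX9 and EMX2 are needed in the mouse for this ridge to form or to grow, and GATA4 and GATA6 remain active in granulosa cells. SOX9 drives the differentiation of Sertoli cells, and DMRT1, a gene on the Z chromosome of birds, directs the male pathway in the chicken. FOXL2 is a forkhead factor of the ovarian pathway, and in the mouse its loss from adult granulosa cells is followed by expression of SOX9 and DMRT1. The comparisons below ask how each of the 9 genes stood in both kinds of granulosa cell and whether it differed after FOXL2 knockdown.

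The siRNAs are shown because every knockdown comparison rests on them. The study lists a single siRNA against FOXL2 and a single nonsense siRNA. Effects of the loss of FOXL2 therefore cannot be told apart from other effects of that siRNA, and a knockdown effect below means KD against CT. Each strand had 21 bases, of which 19 paired with the other strand and 2 formed an overhang. Both strands are written 5′ to 3′ as the study lists them, and the capitals mark bases 2 to 8 of the second strand, the part of a loaded guide strand that pairs first with a target. The capitals of both siRNAs share the same base at 3 positions.
FOXL2-siRNA first strand: gccucaacgagugcuucautt
FOXL2-siRNA second strand: aUGAAGCAcucguugaggctt
NC-siRNA first strand: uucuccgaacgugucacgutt
NC-siRNA second strand: aCGUGACAcguucggagaatt

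The level of FOXL2 itself was the check on the labels. Values within a gene are given as CPM, deposited counts scaled to a common library size with edgeR's TMM factors over the 16 libraries. FOXL2 stood at 508, 445, 472 and 393 CPM in the poGC-KD libraries and at 688, 758, 769 and 724 CPM in the poGC-CT libraries. No poGC-KD library reached the lowest control, and the level fell by 0.68 on the log2 scale (SE 0.0792, edgeR quasi-likelihood test with Benjamini-Hochberg adjusted p = 0.000353). In phGC, FOXL2 stood at 400.5, 506, 399 and 363 CPM in the KD libraries and at 472, 497, 682 and 589 CPM in the CT libraries. There the groups overlapped, because phGC-KD replicate 2 lay above 2 of the controls. The log2 fold change in phGC was -0.43 (SE 0.140, edgeR adjusted p = 0.0878) and did not pass the threshold of 0.05. It was -0.54 without phGC-KD replicate 2 (edgeR adjusted p = 0.0492), and it also passed without phGC-CT replicate 1 (edgeR adjusted p = 0.0489). With all libraries, it passed with DESeq2 and in a single edgeR fit of the 16 libraries (adjusted p = 0.0237 in both). The study itself reported significantly lower FOXL2 mRNA in KD than in CT for both cell types, by qRT-PCR on the RNA that was sequenced. It also reported lower FOXL2 protein in both by Western blot. FOXL2 overlaps PIK3CB in the RefSeq annotation of the GRCg7b assembly, and the kit is not one that marks strand, so reads of the overlap cannot be assigned to one of them. Among the members, GATA4 overlaps a gene of the type misc_RNA there, and LHX9, EMX2 and NR0B1 each overlap a long non-coding RNA gene. Unlike PIK3CB, the genes that overlap these members have no row under their symbol in the deposited tables. All these overlaps are of whole gene spans, and the counts were made on another assembly. Whether any reads were shared was not tested.

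Library totals ran from 29979116 to 56121795 counts, and 15524 to 16400 gene rows had a count. Of 15 granulosa markers, 14 had a row, and their summed level was 3014 to 3195 CPM in poGC-KD, 3361 to 3599 CPM in poGC-CT, 3579 to 4245 CPM in phGC-KD and 3115 to 3769 CPM in phGC-CT. Each of the 14 had counts in every group, FSHR and AMH among them. The sum includes FOXL2, the target of the siRNA, with a mean of 455 CPM in poGC-KD and 735 CPM in poGC-CT. It also includes AMH, with means of 1829 CPM in phGC-KD and 1597 CPM in phGC-CT. In poGC, AMH had means of 26.1 CPM in KD and 49.0 CPM in CT. The sums are therefore no measure of granulosa cell content. Of 13 theca and stroma markers, 12 had a row, and all 12 had counts in every group. Their sum was 1241 to 1308 CPM in poGC-KD, 1696 to 1814 CPM in poGC-CT, 5368 to 6522 CPM in phGC-KD and 5870 to 6613 CPM in phGC-CT. These are bulk samples, in which fewer cells of a type and less RNA per cell cannot be told apart. The cell types also cannot be told apart from follicle size or dissection.

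Levels between genes were compared on the FPKM scale, which the authors divided by transcript length. FOXL2 was the highest of the genes shown, with 531 ± 26.7 FPKM in poGC-CT and 424 ± 65.9 FPKM in phGC-CT (SD, n = 4). In poGC-CT the members followed as GATA6 (160.5 FPKM), EMX2 (32.6 FPKM), GATA4 (20.6 FPKM), WT1 (8.94 FPKM), DMRT1 (2.36 FPKM), NR0B1 (1.65 FPKM), SOX9 (1.41 FPKM), TCF21 (0.462 FPKM) and LHX9 (0.0532 FPKM). Neighbours in that order did not overlap between libraries, apart from NR0B1 and SOX9. In phGC-CT the order was EMX2 (61.8 FPKM), GATA6 (57.2 FPKM), WT1 (39.6 FPKM), GATA4 (26.01 FPKM), NR0B1 (17.0 FPKM), TCF21 (2.26 FPKM), SOX9 (0.891 FPKM), LHX9 (0.0405 FPKM) and DMRT1 (0.0224 FPKM). The libraries of EMX2 and GATA6 overlapped there, as did those of LHX9 and DMRT1. Among all gene rows, the mean FPKM of GATA6 in poGC-CT ranked 330 from the top and that of EMX2 in phGC-CT ranked 1280, whereas SOX9 ranked 10768 in poGC-CT and 11255 in phGC-CT. The FPKM of GATA6 in poGC-CT ran from 117 to 218 (SD 51.2). The transcript length implied by its FPKM differed between libraries, as given below, so its level on this scale is approximate.

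**Figure D1:**
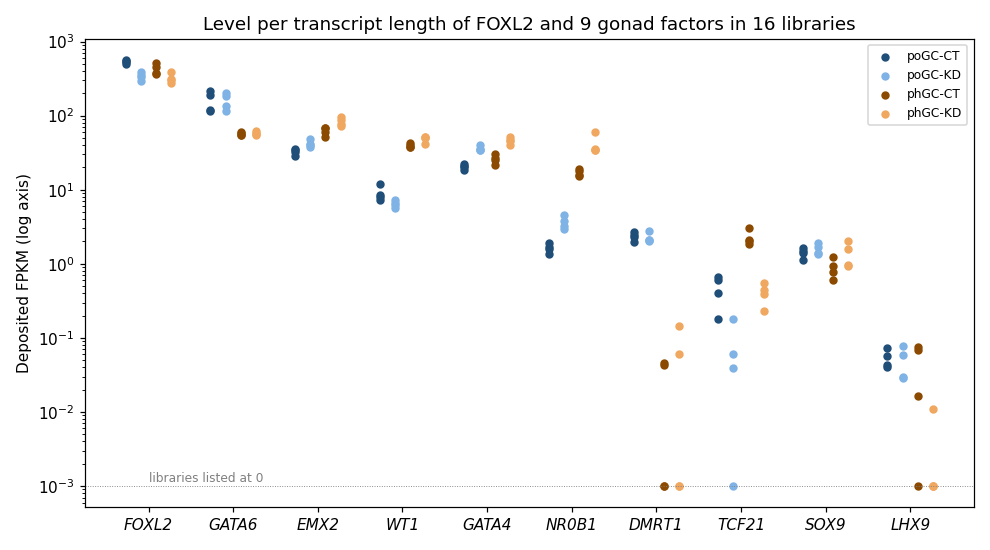
Deposited FPKM (vertical axis, log scale) of FOXL2 and the 9 gonad factors, with 1 point per library and 1 colour per group; libraries listed at 0 are drawn on the dotted line. GATA6, EMX2, WT1 and GATA4 lie at 5.72 FPKM or higher in every library, LHX9 reaches at most 0.0784 FPKM, and LHX9 and DMRT1 are each listed at 0 in 4 phGC libraries.

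With FOXL2 knockdown in poGC, GATA4, EMX2 and NR0B1 rose, WT1 and TCF21 fell, and SOX9, DMRT1, GATA6 and LHX9 did not pass the test. Thus 5 of 9 members passed an edgeR adjusted p of 0.05, where 28.8% of the 14379 gene rows tested did. The 9 genes were chosen with earlier results of these data known. Shares and medians of the members beside those of all rows, here and below, are therefore a description and no test of the group. Leaving out each library in turn gave 2 to 5 members, with GATA4 and NR0B1 called each time, and 3293 to 3897 of all rows. The 3 that rose compare with 15.2% of all rows that rose, and the 2 that fell with 13.6% that fell. The study's criteria, a fold change above 1.5 with an unadjusted p under 0.05, were applied to edgeR values, whereas the study used DESeq. By them 3 members were counted (GATA4, NR0B1 and TCF21), against 11.2% of all rows, and these are not the study's own calls. For 5 members every KD library lay on the same side of all controls, against 31.9% of all rows. The median log2 fold change was -0.07 over the 9 members and 0.01 over all rows, and the median size without sign was 0.31 over the members and 0.20 over all rows.

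In phGC, GATA4 and NR0B1 rose and TCF21 fell with knockdown. DMRT1 and LHX9 had too few counts to be tested, so 3 of 7 members passed, where 9.97% of the 13829 rows tested did. Leaving out each library in turn gave 3 to 5 members and 662 to 1949 of all rows. The 2 members that rose compare with 5.06% of all rows, and the 1 that fell with 4.91%. The same 3 genes met the criteria of the study on edgeR values, against 7.27% of all rows. The libraries of 4 members did not overlap (GATA4, EMX2, NR0B1 and TCF21), against 18.3% of all rows. The median log2 fold change was 0.37 over the 7 members and -0.01 over all rows, and without sign it was 0.60 over the members and 0.19 over all rows.

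**Figure D2:**
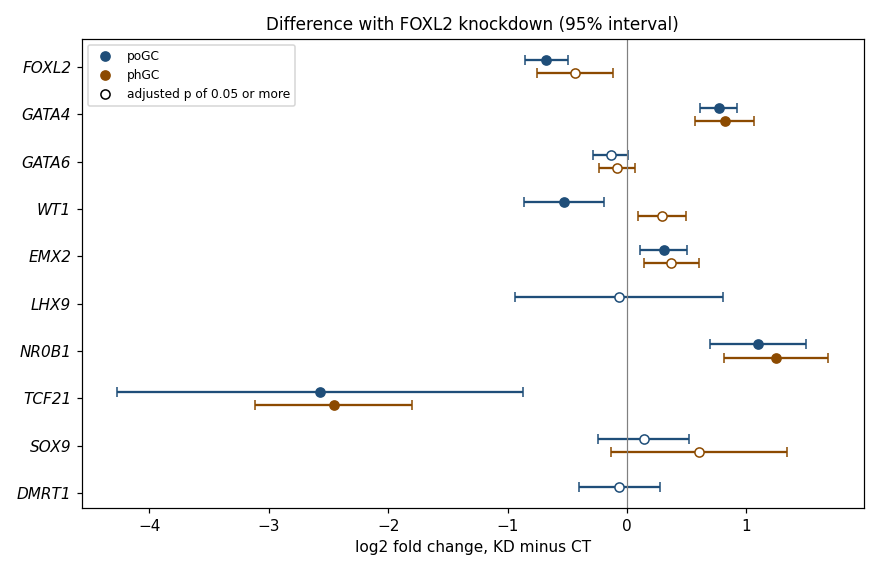
Log2 fold change of KD against CT (horizontal axis) for FOXL2 and the 9 gonad factors in poGC and phGC, as edgeR estimates with 95% intervals; filled points had an adjusted p under 0.05, and LHX9 and DMRT1 have no phGC value because they were not tested there. GATA4, NR0B1 and TCF21 lie on the same side of 0 in both cell types, and WT1 lies at -0.53 in poGC and 0.29 in phGC.

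GATA4 is a zinc finger factor that binds promoters of steroidogenic genes and of AMH. It stood at 257, 230.3, 226 and 225 CPM in poGC-KD and at 138, 128, 151 and 140.5 CPM in poGC-CT. Every KD library was above every control, and the level rose by 0.77 on the log2 scale (95% interval 0.61 to 0.92, edgeR adjusted p = 7.04e-05), a fold change of 1.70. In phGC, GATA4 stood at 328, 253, 297 and 297 CPM in the KD libraries and at 191, 169.9, 139 and 163 CPM in the CT libraries. Again the groups did not overlap, and the level rose by 0.82 on the log2 scale (95% interval 0.57 to 1.06, edgeR adjusted p = 0.00325). The difference between both rises was -0.07 on the log2 scale (95% interval -0.36 to 0.21, edgeR interaction term, adjusted p = 0.819). GATA4 kept its call in both cell types under every one of the 16 alternatives tried in each, with log2 fold changes of 0.71 to 0.81 in poGC and 0.74 to 0.89 in phGC. Between cell types, GATA4 was lower in poGC than in phGC, with log2 differences of -0.25 in CT libraries (edgeR adjusted p = 0.0496) and -0.33 in KD libraries (edgeR adjusted p = 0.00584), and the libraries overlapped in both. The call in CT libraries was lost without poGC-CT replicates 1, 2 or 4 or phGC-CT replicates 1, 2 or 4, with adjusted p-values up to 0.119, and also with no filter on low counts (0.0721) or the strict one (0.0557).

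GATA6, a close relative of GATA4 that is co-expressed with it in granulosa cells, differed by cell type and not detectably with knockdown. It stood at 460.4, 475, 493 and 416 CPM in poGC-KD and at 496, 530.4, 545 and 479.9 CPM in poGC-CT. In phGC it stood at 237, 228, 242 and 243 CPM in the KD libraries and at 259, 222, 266 and 252 CPM in the CT libraries. The KD and CT libraries overlapped in both cell types, whereas all poGC libraries lay above all phGC libraries. The log2 fold change with knockdown was -0.14 in poGC (95% interval -0.28 to 0.01, edgeR adjusted p = 0.149) and -0.08 in phGC (95% interval -0.24 to 0.07, edgeR adjusted p = 0.472). GATA6 was higher in poGC than in phGC by 1.04 on the log2 scale in CT libraries (95% interval 0.88 to 1.20, edgeR adjusted p = 3.30e-06) and by 0.95 in KD libraries (95% interval 0.81 to 1.09, edgeR adjusted p = 1.74e-06).

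The deposited FPKM of GATA6 spread more widely over the poGC libraries than its CPM. They were 135, 184, 199 and 116 FPKM in poGC-KD replicates 1 to 4 and 118, 189, 218 and 117 FPKM in poGC-CT replicates 1 to 4. The libraries numbered 2 and 3 were thus high and those numbered 1 and 4 low in both groups. The CPM had the same order of libraries, but lay within 416 to 545. The transcript length that would turn the counts into these FPKM values ran from 2459 to 4575 bases over the libraries, a ratio of 1.86. That ratio was 1.04 for FOXL2 and 1.06 for GATA4. Over the libraries with a count, it was 2.37 for LHX9, 1.53 for DMRT1 and 1.27 for TCF21, which had few counts in some or all groups. On the FPKM scale the knockdown difference of GATA6 was 0.003 in poGC and 0.02 in phGC (log2, limma), of the other sign than on counts, and no direction was read from either.

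WT1 encodes a zinc finger factor of the coelomic epithelium and the early gonad that is also made in granulosa cells of growing follicles. It stood at 23.8, 21.6, 23.8 and 20.5 CPM in poGC-KD and at 42.8, 26.3, 29.3 and 32.5 CPM in poGC-CT. The KD libraries were all below the controls, of which replicate 1 was the highest. WT1 fell by 0.53 on the log2 scale in poGC (95% interval -0.86 to -0.20, edgeR adjusted p = 0.0261). The call was lost without poGC-KD replicate 2, poGC-KD replicate 4 or poGC-CT replicate 4 (edgeR adjusted p = 0.0591, 0.0594 and 0.0534) and with limma on the FPKM scale (adjusted p = 0.0817 and 0.0742 with pseudocounts of 0.1 and 1). In phGC, WT1 stood at 142, 166, 179 and 178 CPM in the KD libraries and at 149, 127, 128 and 137 CPM in the CT libraries. Replicate 1 of phGC-KD lay within the controls, and the other KD libraries lay above them. The log2 fold change in phGC was 0.29 (95% interval 0.10 to 0.49, edgeR adjusted p = 0.0683), which passed without phGC-KD replicate 1 (edgeR adjusted p = 0.0331) or without phGC-CT replicate 1 (edgeR adjusted p = 0.0394), and with DESeq2 on all libraries (adjusted p = 0.0228).

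The knockdown effect on WT1 differed between the cell types. The effect in poGC minus that in phGC was -0.84 on the log2 scale (SE 0.175, 95% interval -1.22 to -0.47, edgeR interaction term over 16 libraries, adjusted p = 0.00669). WT1 was the 1 member of 9 with such a call, against 9.25% of the 14775 rows tested, and it kept the call under all 23 alternatives, with adjusted p-values of 0.000103 to 0.0285. WT1 was lower in poGC than in phGC, with a log2 difference of -2.05 in CT libraries (95% interval -2.38 to -1.71, edgeR adjusted p = 4.37e-06). In KD libraries the cell types differed by -2.90 on the log2 scale (95% interval -3.10 to -2.69, edgeR adjusted p = 2.72e-08). The 4 groups share their libraries between these comparisons, so the values are not independent of the interaction term. Surface epithelium expresses WT1 as well, and of 9 listed markers of it 8 had a row. Of 6 tested, 4 were lower in poGC than in phGC in CT libraries, as WT1 was, where 31.5% of all rows were lower. Their log2 differences were -4.67 for KRT19, -4.56 for CDH1, -2.78 for EPCAM and -2.46 for KRT7. LRRN4 (2.99) and MSLN (0.41) were higher, where 32.5% of all rows were. With knockdown in poGC, KRT19 rose by 2.26 (edgeR adjusted p = 1.54e-06), KRT7 rose by 0.26 (edgeR adjusted p = 0.0200) and CDH1 fell by 1.70 on the log2 scale (edgeR adjusted p = 0.0439). The other 3 (EPCAM, LRRN4 and MSLN) did not pass, where 15.2% of all rows rose and 13.6% fell. In phGC, where WT1 had a log2 fold change of 0.29, KRT19 rose by 0.59 (edgeR adjusted p = 0.00392) and LRRN4 by 0.69 (edgeR adjusted p = 0.000487). The other 4 did not pass there, where 5.06% of all rows rose and 4.91% fell. The summed level of the list was 1737 to 1820 CPM in poGC-KD, 1615 to 1701 CPM in poGC-CT, 1009 to 1184 CPM in phGC-KD and 908 to 1042 CPM in phGC-CT. Most of that sum was LRRN4 in poGC. The part of such cells in the WT1 values was not tested.

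EMX2 is a homeobox factor without which the mouse gonad and urogenital tract do not develop. It stood at 91.4, 80.5, 76.7 and 74.3 CPM in poGC-KD and at 68.9, 71.9, 57.6 and 65.1 CPM in poGC-CT. All KD libraries were above the controls, the nearest by a small margin, and EMX2 rose by 0.31 on the log2 scale (95% interval 0.11 to 0.51, edgeR adjusted p = 0.0276). Without poGC-KD replicate 1, poGC-KD replicate 2, poGC-CT replicate 3 or poGC-CT replicate 4 the adjusted p ran from 0.0593 to 0.0727. In phGC, EMX2 stood at 169, 164, 135 and 146 CPM in the KD libraries and at 128, 128, 101 and 115 CPM in the CT libraries. The groups did not overlap, and the log2 fold change of 0.37 (95% interval 0.14 to 0.60) had an edgeR adjusted p of 0.0516 and so did not pass. It passed under 6 of 16 alternatives, among them DESeq2 (adjusted p = 0.0104) and the fits without phGC-KD replicate 3 or without phGC-CT replicate 1. The difference between both effects was -0.08 on the log2 scale (95% interval -0.38 to 0.21, edgeR interaction term, adjusted p = 0.796). EMX2 was lower in poGC than in phGC, with log2 differences of -0.84 in CT libraries (95% interval -1.07 to -0.62, edgeR adjusted p = 8.22e-05) and -0.94 in KD libraries (95% interval -1.14 to -0.73, edgeR adjusted p = 2.27e-05), with no overlap.

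LHX9, a LIM homeobox factor of the early gonad and an activator of NR5A1 in the mouse, was near the limit of detection. It had 8, 16, 10 and 17 counts in poGC-KD and 13, 9, 17 and 11 counts in poGC-CT. In phGC it had 0, 0, 0 and 3 counts in the KD libraries and 8, 3, 0 and 8 counts in the CT libraries. The KD and CT libraries overlapped in both cell types, and all poGC-KD libraries lay above all phGC-KD libraries. With knockdown in poGC the log2 fold change was -0.07 (95% interval -0.93 to 0.80, edgeR adjusted p = 0.920). In phGC the counts over the group were 3 in KD and 19 in CT, a ratio of 0.139 after scaling (95% exact interval 0.0264 to 0.473). Such intervals take counts as independent and are too narrow, since both reads of a pair were counted at least in part. The gene did not pass the filter on low counts. Without that filter its log2 fold change in phGC was -2.61 (SE 1.35, edgeR adjusted p = 0.307). Between cell types, 51 counts in poGC-KD stood against 3 in phGC-KD, a ratio of 12.4 (95% exact interval 4.02 to 62.2, counts taken as independent). In CT, 50 counts in poGC-CT stood against 19 in phGC-CT, a ratio of 1.84 (1.06 to 3.30, also too narrow). With the spread between libraries taken in and no filter, the log2 difference of LHX9 was 3.45 in KD (edgeR adjusted p = 0.0180) and 0.89 in CT (edgeR adjusted p = 0.366), so that the difference in CT did not pass.

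NR0B1 (DAX1) is an orphan nuclear receptor that lacks the usual zinc finger domain and represses the activity of NR5A1. It stood at 5.04, 6.17, 4.33 and 3.96 CPM in poGC-KD and at 2.42, 2.68, 1.90 and 2.23 CPM in poGC-CT. Every KD library was above every control, and NR0B1 rose by 1.09 on the log2 scale (95% interval 0.69 to 1.495, edgeR adjusted p = 0.00194), a fold change of 2.14. In phGC, NR0B1 stood at 45.9, 77.9, 44.8 and 45.8 CPM in the KD libraries and at 19.8, 21.1, 25.2 and 23.6 CPM in the CT libraries. The groups did not overlap, with phGC-KD replicate 2 far above the other KD libraries, and NR0B1 rose by 1.25 on the log2 scale (95% interval 0.81 to 1.68, edgeR adjusted p = 0.00555). Without that library, which also had the highest FOXL2 level of its group, the rise was 1.01 (edgeR adjusted p = 0.00259). The difference between both rises was -0.18 on the log2 scale (95% interval -0.74 to 0.39, edgeR interaction term, adjusted p = 0.772).

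NR0B1 was also the member with the smallest p between cell types in CT libraries. It was lower in poGC than in phGC, with a log2 difference of -3.28 in CT libraries (95% interval -3.59 to -2.98, edgeR adjusted p = 1.60e-07), a level 9.72-fold higher in phGC. In KD libraries the difference was -3.47 (95% interval -4.00 to -2.94, edgeR adjusted p = 2.24e-06). NR5A1 (SF1), the nuclear receptor whose activity NR0B1 represses and an activator of steroidogenic genes, had 189.8 ± 9.63 CPM in poGC-CT and 142 ± 8.19 CPM in phGC-CT (SD, n = 4). With knockdown, NR5A1 rose by 0.52 on the log2 scale in phGC (edgeR adjusted p = 0.00250), and its log2 fold change in poGC was 0.08 (edgeR adjusted p = 0.436). The interaction term for NR5A1 was -0.46 (edgeR adjusted p = 0.00644). NR5A2 (LRH-1), its close relative, rose by 1.07 on the log2 scale in poGC (edgeR adjusted p = 5.42e-06) and had a log2 fold change of 0.89 in phGC (edgeR adjusted p = 0.158).

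TCF21 is a basic helix-loop-helix factor of mesenchymal cells of the gonad, kidney and heart. It had 5, 3, 15 and 0 counts in poGC-KD and 10, 45, 45 and 29 counts in poGC-CT. On the CPM scale these were 0.103, 0.0643, 0.263 and 0 against 0.281, 0.982, 0.862 and 0.583. The KD libraries stayed below the controls, but the highest of them, replicate 3, lay close to the lowest control, replicate 1. TCF21 fell by 2.57 on the log2 scale in poGC (95% interval -4.27 to -0.87, edgeR adjusted p = 0.0320). The 23 counts of the KD group stood against 129 of the CT group, 6.08-fold fewer after scaling (95% exact interval 3.88 to 9.93, counts taken as independent). The call in poGC was lost without poGC-KD replicate 1, poGC-KD replicate 2, poGC-CT replicate 2, poGC-CT replicate 3 or poGC-CT replicate 4, with edgeR adjusted p-values of 0.0593 to 0.0851.

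The counts of TCF21 were larger in phGC. It stood at 0.586, 0.763, 0.341 and 0.564 CPM in phGC-KD and at 2.50, 2.77, 4.25 and 2.82 CPM in phGC-CT. The groups lay well apart, and TCF21 fell by 2.46 on the log2 scale (95% interval -3.12 to -1.80, edgeR adjusted p = 0.00202), with 81 counts in KD against 394 in CT. This call was kept under all 16 alternatives in phGC. The difference between both falls was -0.14 on the log2 scale (95% interval -1.61 to 1.34, edgeR interaction term, adjusted p = 0.944), an interval too wide to order the falls. TCF21 was lower in poGC than in phGC, with log2 differences of -2.17 in CT libraries (95% interval -3.02 to -1.33, edgeR adjusted p = 0.000833) and -2.32 in KD libraries (95% interval -3.93 to -0.70, edgeR adjusted p = 0.0189, or 0.0539 without poGC-KD replicate 2).

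Since TCF21 marks mesenchymal cells, the markers of such cells are given beside it. In phGC the summed theca and stroma markers overlapped between KD and CT, whereas in poGC all KD libraries, at 1241 to 1308 CPM, lay below all controls, at 1696 to 1814 CPM. Of 11 of these markers tested in poGC, 5 fell (DCN, HSD17B1, COL3A1, CYP17A1 and NR2F2) and 3 rose, POSTN by 1.16, COL1A1 by 0.66 and THY1 by 0.50 on the log2 scale. Of 12 tested in phGC, 1 fell (HSD17B1, by 1.18). DESeq2 called 1 higher and 3 lower there, where it called 2271 of the 13829 rows tested. The 7 smooth muscle markers summed to 331 to 504 CPM in poGC-KD against 868 to 1049 CPM in poGC-CT, and to 370.1 to 433 CPM in phGC-KD against 768 to 855 CPM in phGC-CT. Of these, 5 fell and 1 (MYH11) rose in poGC, and 3 fell in phGC. The edgeR counts of both lists are to be read against 13.6% of all rows that fell and 15.2% that rose in poGC. In phGC the shares were 4.91% and 5.06%. ACTA2, the smooth muscle actin that made up most of the sum, fell by 1.16 on the log2 scale in poGC (edgeR adjusted p = 0.000353) and by 1.05 in phGC (edgeR adjusted p = 0.000204). All 7 had counts in every group. The part of such cells in the fall of TCF21 was not tested.

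**Figure D3:**
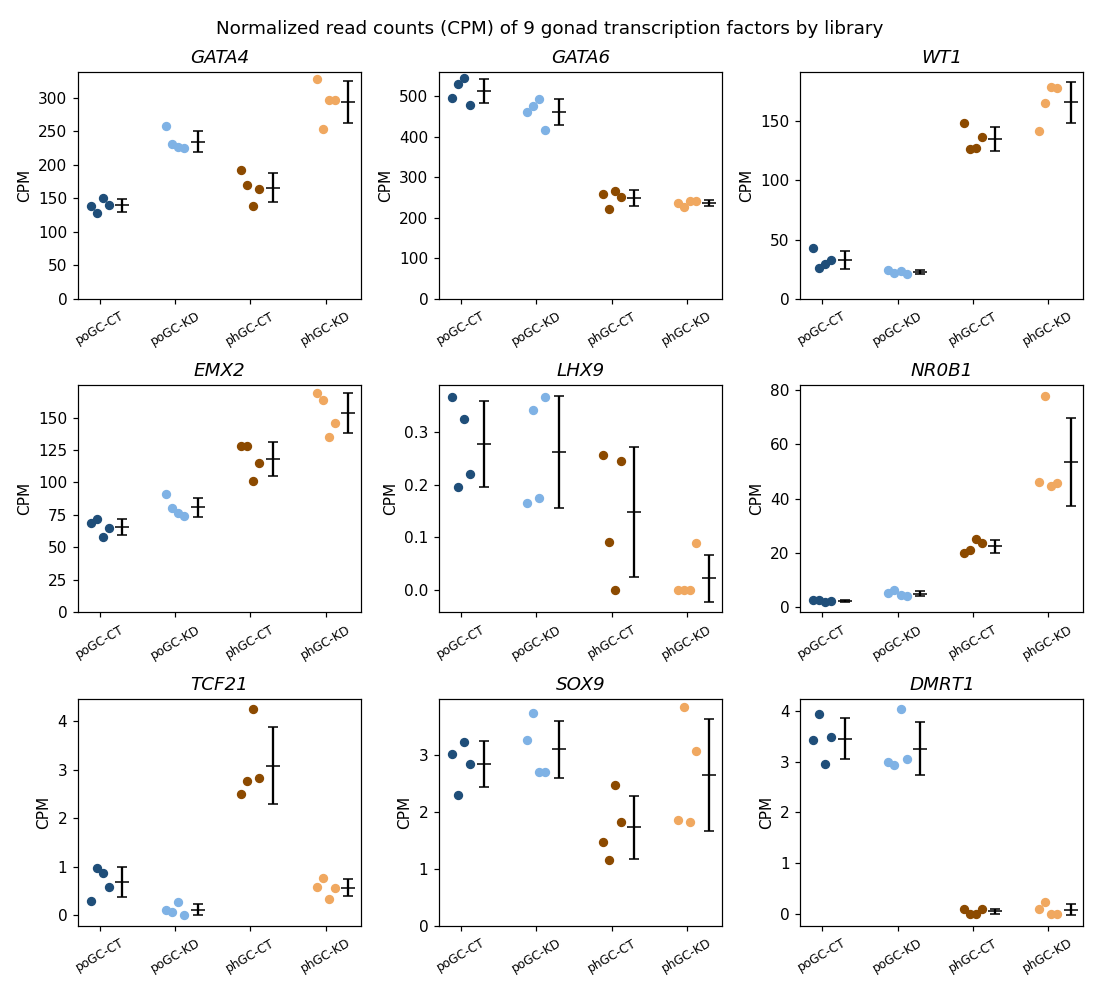
CPM of the 9 gonad factors (vertical axes, from 0 with their own scale) in the 16 libraries, with 1 point per library in replicate order and, beside each group, the mean and SD over 4 libraries. GATA4 and NR0B1 are higher and TCF21 is lower in KD than in CT in both cell types, NR0B1 shows 1 high library at 77.9 CPM in phGC-KD, and DMRT1 is near 0 in phGC.

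SOX9, the Sertoli cell factor, was low in all groups. It stood at 3.26, 3.73, 2.70 and 2.69 CPM in poGC-KD and at 3.01, 2.29, 3.22 and 2.84 CPM in poGC-CT. In phGC it stood at 1.85, 3.85, 1.82 and 3.06 CPM in the KD libraries and at 1.47, 1.16, 2.46 and 1.81 CPM in the CT libraries. KD and CT overlapped in both cell types, and phGC-KD held a pair of higher and a pair of lower libraries. The log2 fold change with knockdown was 0.14 in poGC (95% interval -0.24 to 0.52, edgeR adjusted p = 0.584) and 0.60 in phGC (95% interval -0.14 to 1.34, edgeR adjusted p = 0.281). SOX9 was higher in poGC than in phGC by 0.72 on the log2 scale in CT libraries (95% interval 0.15 to 1.28, edgeR adjusted p = 0.0306), where the libraries overlapped. That call was lost without poGC-CT replicates 1, 3 or 4 or phGC-CT replicates 1, 2 or 4 (edgeR adjusted p up to 0.0770), and in KD libraries the difference was 0.22 (95% interval -0.39 to 0.84, edgeR adjusted p = 0.506).

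DMRT1, the male pathway gene on the Z chromosome, was found in poGC and hardly in phGC. It stood at 2.996, 2.93, 4.03 and 3.06 CPM in poGC-KD and at 3.43, 3.93, 2.95 and 3.48 CPM in poGC-CT. These groups overlapped, and the log2 fold change was -0.07 (95% interval -0.41 to 0.27, edgeR adjusted p = 0.787). In phGC it had 4, 7, 0 and 0 counts in the KD libraries and 3, 0, 0 and 3 counts in the CT libraries, too few for a test of knockdown. All poGC libraries were above all phGC libraries. The 629 counts of poGC-CT stood against 6 of phGC-CT, 73.2-fold more after scaling (95% exact interval 33.4 to 200.2, counts taken as independent). The 654 counts of poGC-KD stood against 11 of phGC-KD, 43.4-fold more (24.1 to 87.4). The fitted differences were 6.10 on the log2 scale in CT (SE 0.614, edgeR adjusted p = 3.43e-05) and 5.34 in KD (SE 0.741, edgeR adjusted p = 0.000220). Germ cells also express DMRT1. Of the defining germ cell genes, DDX4 had 1 to 9 counts and DAZL 8 to 23 counts summed over the 4 libraries of a group, and DDX4 had 2 counts in each of the poGC groups. Of 5 germ cell genes tested between cell types, 2 were higher in poGC in CT and in KD, where 32.5% and 31.1% of all rows were. PIWIL1 was higher by 0.26 on the log2 scale in CT (edgeR adjusted p = 0.0471) and 0.47 in KD (edgeR adjusted p = 0.00378). ZP3, an egg coat gene that hen granulosa cells make, was higher by 1.07 in CT (edgeR adjusted p = 3.87e-05) and 0.73 in KD (edgeR adjusted p = 0.000115). ZP1, another egg coat gene, was lower in poGC, with log2 differences of -2.05 in CT and -2.38 in KD, where 31.5% and 30.1% of all rows were lower. TDRD9 and SYCP3 did not pass. The sum of the list was nearly all ZP3, at 38630 CPM in poGC-CT and 18406 CPM in phGC-CT. The part of germ cells in the DMRT1 values was not tested.

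DMRT2, a relative of DMRT1 with the same DNA-binding domain, had the same direction between cell types at a higher level. It stood at 105 ± 7.96 CPM in poGC-CT and 2.26 ± 0.771 CPM in phGC-CT (SD, n = 4). The difference was 5.53 on the log2 scale in CT libraries and 4.96 in KD libraries. With knockdown, DMRT2 rose by 0.63 on the log2 scale in poGC (edgeR adjusted p = 0.000420) and by 1.17 in phGC (edgeR adjusted p = 0.0210). In the RefSeq annotation of GRCg7b, DMRT3 is the next protein-coding gene to DMRT1, and 1 further gene separates DMRT3 from DMRT2. DMRT3 itself had 33 counts in poGC-CT and 13 counts in phGC-CT over the 4 libraries, and it was not tested. DMRT2 was the 1 tested gene of the 4 other members of the DMRT family in the files.

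Between cell types, 8 of 8 members tested differed in CT libraries, where 64% of the 14089 rows tested did. Leaving out each library in turn gave 6 to 8, the calls lost being those of GATA4 and SOX9 given above. SOX9, DMRT1 and GATA6 were higher in poGC, against 32.5% of all rows, and 5 (WT1, GATA4, EMX2, NR0B1 and TCF21) were lower, against 31.5%. The libraries of 6 members did not overlap, against 60.3% of all rows. In KD libraries, which the CT comparison did not use, 7 of 8 members differed, against 61.2% of the 14349 rows tested. There 2 were higher in poGC (DMRT1 and GATA6), against 31.1%, and the same 5 as in CT were lower, against 30.1%, and 6 did not overlap, against 58.2%. The median size of the log2 difference without sign was 1.54 over the members and 0.52 over all rows in CT libraries, and 1.63 and 0.48 in KD libraries. Of 12 theca and stroma markers tested between cell types in CT libraries, 3 were higher in poGC, 6 were lower and 3 did not pass. Their log2 differences ran from -3.28 for COL1A1 to 4.64 for DCN. In KD libraries 4 of 12 were higher and 7 lower, and these counts are to be read against the shares of all rows just given. The part of such cells in the differences of the members was not tested. Each cell type comparison shares its libraries with the knockdown comparisons, so the values stand side by side and are no replicate of each other.

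**Figure D4:**
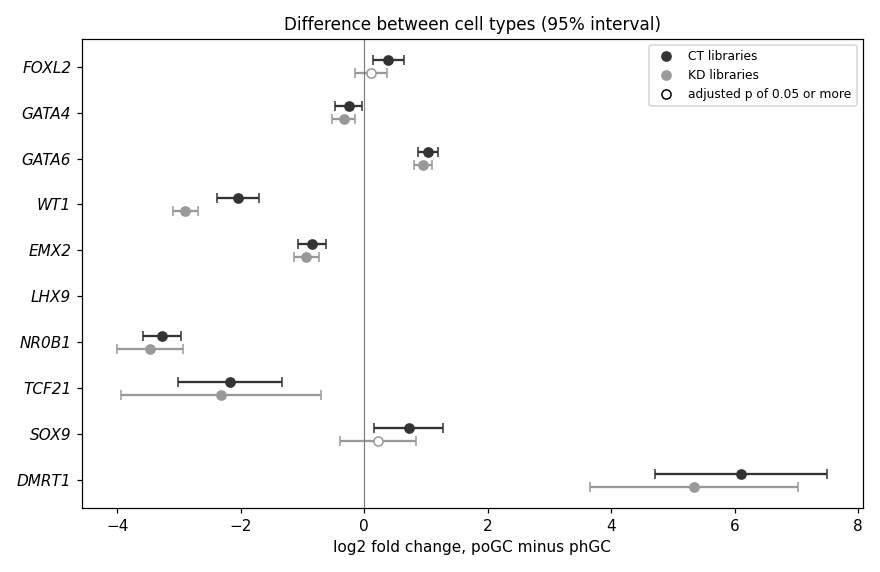
Log2 fold change of poGC against phGC (horizontal axis) for FOXL2 and the gonad factors, in CT and in KD libraries, as edgeR estimates with 95% intervals; filled points had an adjusted p under 0.05, and LHX9 was not tested. DMRT1, at 6.10 in CT and 5.34 in KD, lies farthest to the right, and NR0B1, at -3.28 and -3.47, farthest to the left.

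Other genes of the testis and ovary pathways were counted from lists that were chosen with earlier results of these data known. Of 14 testis pathway genes tested in poGC, 4 rose and 2 fell with knockdown (28.8% of all rows passed). HEMGN, a factor of the male chicken gonad that activates SOX9, rose by 1.57 on the log2 scale (edgeR adjusted p = 5.57e-06), and PTCH1, the hedgehog receptor, rose by 0.70 (edgeR adjusted p = 0.00174). AMH, the hormone that regresses the Müllerian ducts and a marker of granulosa cells of small follicles, fell by 0.90 in poGC (edgeR adjusted p = 0.000175), and SOX8, a relative of SOX9, fell by 0.83 (edgeR adjusted p = 0.000902). The list therefore did not move in 1 direction, with a median of 0.21 against 0.01 over all rows. In phGC 2 of 13 passed and both fell, where 9.97% of all rows passed and 4.91% fell. FGF9, which sustains SOX9 in the mouse testis, was 1 of the 2 and fell by 1.42 on the log2 scale (edgeR adjusted p = 0.00996). DESeq2 called 3 of the list higher and 2 lower there, where it called 2271 of the 13829 rows tested. The knockdown effects on HEMGN, AMH, SOX8 and FGF9 differed between the cell types (edgeR interaction term, adjusted p = 7.34e-05, 0.00263, 0.0181 and 0.00238).

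Of 15 ovary pathway genes tested in poGC, 7 fell, where 13.6% of all rows did, and the other 8 did not pass. The median log2 fold change of the list was -0.49 against 0.01 over all rows. FOXL2 is 1 of the 7 and was the target of the siRNA. The other 6 were BMP2, CTNNB1, FST, LGR4, MAF and RUNX1. MAF had a log2 fold change of -2.03 in poGC (edgeR adjusted p = 0.0404), but its controls ranged from 11.3 to 104 CPM and overlapped the KD libraries. In phGC 2 of 11 rose and 1 fell, where 5.06% and 4.91% of all rows did. BMP2 was 1 of those that rose, by 0.34 (edgeR adjusted p = 0.00842), whereas it fell in poGC by 0.38 (edgeR adjusted p = 0.0299). WNT4, a ligand of the ovarian pathway, rose by 0.71 there (edgeR adjusted p = 0.0243), and its log2 fold change in poGC was 0.27 (edgeR adjusted p = 0.203). CYP19A1, the aromatase gene, had 0 to 3 counts over the 4 libraries of a group and was not tested.

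The counts of the lists that follow are to be read against 15.2% of all rows that rose and 13.6% that fell in poGC, and 5.06% and 4.91% in phGC. Among early gonad factors, 1 of 12 rose (NR5A2) and 4 fell in poGC, and 1 of 11 rose in phGC (NR5A1). Of the SOX family other than SOX9, 2 of 7 tested genes fell in poGC (SOX8 and SOX6), and in phGC 0 of 7 passed with edgeR, 0 with DESeq2 and 0 at an unadjusted p under 0.05. Of the GATA family and its FOG cofactors, 2 of 3 fell in poGC, GATA3 by 0.93 (edgeR adjusted p = 0.0208) and ZFPM2 (FOG2), the partner of GATA4, by 0.34 (edgeR adjusted p = 0.00214). ZFPM1 (FOG1) had log2 fold changes of 0.17 in poGC and 0.08 in phGC, neither of which passed. In phGC 0 of 2 tested genes of this list passed with edgeR, 0 with DESeq2 and 0 at an unadjusted p under 0.05. Of the LIM and EMX homeobox genes and LIM cofactors, 2 of 7 fell in poGC, among them LHX1 by 1.01 (edgeR adjusted p = 0.0182), and in phGC 0 of 5 passed with edgeR, 0 with DESeq2 and 0 at an unadjusted p under 0.05. Of the partners and relatives of TCF21, 1 of 11 rose and 3 fell in poGC, and 1 of 10 rose in phGC. TWIST1, a mesenchymal factor, fell in poGC by 1.29 (edgeR adjusted p = 2.53e-05), ID1, an inhibitor of such factors, rose in poGC by 0.73 (edgeR adjusted p = 0.000823), and ID3 rose in phGC by 0.72 (edgeR adjusted p = 0.0362). TCF12 and TCF3, with which TCF21 pairs to bind DNA, stood at 290.5 and 204 CPM in poGC-CT, and their log2 fold changes of 0.05 and 0.01 in poGC did not pass.

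For each member with a knockdown call, the gene rows whose log2 CPM followed it most closely over the 16 libraries were listed, as a description without a p, among about 11638 rows with a mean log2 CPM of at least 1. The points share libraries, groups and depth, so the values carry the differences between the 4 groups as well as those within them. NR0B1 was followed most closely by IER5L (Pearson r = 0.993), SNCB (0.989) and MPP1 (0.986). WT1 was followed by ANPEP (0.989), SAMD11 (0.988) and FKBP9 (0.988), and GATA4 by ABCA1 (0.969), CTTNBP2NL (0.966) and TCOF1 (0.955). EMX2 was followed by RBM38 (0.971), NR0B1 (0.967) and NEO1 (0.962). TCF21 was followed by SRF (0.947), HSD17B1 (0.937) and OLFML2B (0.937).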

How the data were processed

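Polyadenylated RNA was sequenced as paired reads on a HiSeq instrument from NEBNext Ultra libraries, a kit that is not one that marks strand. The authors deposited raw counts per gene against Gallus_gallus-5.0, and FPKM values, which the authors computed from reads, depth and transcript length. The methods name TopHat2 as aligner, whereas the submitters' processing notes list HISAT2 2.1.0, StringTie 1.3.4d and DESeq2 1.26.0, and which program made the counts is not settled by them. The scale of transcript lengths behind the FPKM could be read only from the ratio of counts to FPKM. The genes and lists were chosen with earlier results of these data known.

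Counts were tested with edgeR 4.0.16 in R 4.3.3 (TMM scaling, filterByExpr, quasi-likelihood F-test, Benjamini-Hochberg adjustment over all rows tested, threshold 0.05). KD was compared with CT within each cell type, the cell types were compared within CT and within KD, and the difference between both knockdown effects was an interaction term over 16 libraries. Intervals of count ratios were exact, took counts as independent and left out the spread between libraries. The library totals exceed the numbers of clean read pairs that the study lists, so both reads of a pair were counted at least in part. These intervals are therefore too narrow even for counting error. The procedure was tested on simulated data. The text names the 9 genes, FOXL2, genes of the lists past the threshold with a fold above 1.5 or needed as partners or relatives, marker genes, and the 3 rows nearest in pattern to each member with a knockdown call. BMP2, CTNNB1, FST, LGR4 and RUNX1 were added as names after their values were seen.

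Alternatives were upper-quartile scaling, DESeq2 1.42.0, no filter, at least 10 counts in every library, a replicate block, a single fit of 16 libraries, limma 3.58.1 on log2(FPKM + 0.1) and on log2(FPKM + 1), and leaving out each library in turn. No 2 libraries of a group were duplicates (chi-square per degree of freedom at least 26.09 in 24 pairs). Gene symbols were used as deposited, and 187 of the 18151 rows share a symbol with another row, none of them a member. Neighbouring genes were read by name from RefSeq (GRCg7b), in which 9 of 9 members matched. Some genes of the lists are counted but not reported here by name.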

Additional observations from a re-analysis of the deposited data

Results flagged for a closer look

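In 40 groups of 4 libraries, over FOXL2 and the 9 genes, 3 had a library far from the other 3 on the CPM scale. Chance gives about 1 in 20 for normally distributed values, a rate that does not hold for groups with few counts. NR0B1 in phGC-KD replicate 2 stood at 77.947 CPM, the other KD libraries at 44.8 to 45.9 CPM. DMRT1 in poGC-KD replicate 3 stood at 4.0317 CPM, the others at 2.93 to 3.06 CPM. LHX9 in phGC-KD replicate 4 stood at 0.089113 CPM, which is 3 counts, where the others had 0. With the others at 0, any count at all would have been flagged. The knockdown effect on WT1 differed between the cell types by -0.843451 on the log2 scale (edgeR interaction term, adjusted p = 0.00669), with every poGC-KD library below the controls and 3 of 4 phGC-KD libraries above them.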

How the results depend on the processing

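Of 798 alternative values over 46 gene results, 737 kept their direction and their side of the threshold, 31 lost and 13 gained a call, and 17 changed sign. The sign changes were in results that had not passed. For GATA6, limma on FPKM with pseudocounts of 0.1 and 1 gave 0.0031 and 0.0030 in poGC and 0.017 and 0.016 in phGC. For the interaction of TCF21 it gave 0.52 and 0.77, the latter past the threshold (adjusted p = 0.0109), so that 2 members passed there instead of 1. Leaving out each library gave -0.28 to 0.090 for LHX9 in poGC and, for the interaction, -1.08 to 0.25 for TCF21, -1.32 to 0.37 for DMRT1, -0.32 to 0.058 for NR0B1 and -0.15 to 0.010 for GATA4. The cause was not tested. For TCF21, limma on log2(FPKM + 1) gave smaller falls, -0.44 in poGC and -1.21 in phGC, since the pseudocount exceeds most of its FPKM values. With at least 10 counts required in every library, LHX9 had no value, and neither had TCF21 in poGC, in the interaction and between cell types in KD, nor DMRT1 outside poGC.

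Leaving out each library gave 2 to 5 members called in poGC, and 3 to 5 in phGC. In phGC DESeq2 called 5 members and 2271 genes, the single fit called 2575 genes, and leaving out each library gave 662 to 1949, against 1379. In phGC the fits without a library span more than 1.5 times the count, so counts of genes there depend on single libraries. No pairing of libraries by replicate number was seen between the groups compared (correlations of -0.0903 to 0.122). Such correlations over 4 libraries per group cannot exclude that libraries of the same number share a hen. With the replicate block 4 members passed in poGC, without TCF21 (adjusted p = 0.0583), and 4 in phGC, with EMX2 (adjusted p = 0.0190). Between cell types in CT the block left 7 members, without GATA4 (adjusted p = 0.1001), and it changed no other member's call. The block called 3146 genes in poGC and 1066 in phGC. Levels of LHX9 and of DMRT1 in phGC rest on few counts, and neither gene was tested for knockdown there with the main filter.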

Other observations

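SOX4, of the SOX list, had 5 to 8 counts in 11 libraries and 1934 to 3221 counts in 5 (poGC-KD replicate 3, poGC-CT replicate 3, phGC-KD replicate 2 and phGC-CT replicates 3 and 4). Over the 18151 gene rows, 36 held, within a group, a library with at least 1000 counts beside one with at most 10, and 4 rows did so in every group. None of the 9 gonad factors was among them (0 rows).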
